A study of Homo sapiens with 8 samples.

Results

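The genes described here work in the endoplasmic reticulum (ER), where secreted and membrane proteins are folded. They are 33 listed genes for chaperones, folding enzymes, stress sensors and ER-associated degradation (ERAD), the route that removes proteins which fail to fold. Each gene was represented by the probe set with its highest mean over all arrays, and 32 of the 33 had a probe set of their own, among 18417 named genes on the array. PDIA3, a disulfide isomerase, shares its probe sets with the pseudogene PDIA3P1 and was therefore not measured. The 32 measured members comprise 9 chaperones and their partners, 3 genes of the lectin cycle, 5 of disulfide formation, 4 stress sensors and transcription factors, 8 of ERAD and 3 of protein entry and export.

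Transcript levels came from 8 Affymetrix whole-transcript arrays of 2 established human prostate cancer cell lines, LNCaP, which responds to androgen, and DU145, which grows without it. Each line, grown in RPMI medium with 10% fetal bovine serum, received 1 of 4 constructs for 72 h: miR-29b or its negative control miRNA (nc), and siTET2, which targets TET2, or its control siRNA (siControl). There was 1 array per line and construct, so a difference inside a line has no replicate and no test. Only a difference common to both lines could be tested, and its error is how far the lines depart from a shared effect. RNA came from whole cultures, so fewer cells making a transcript and less of it per cell cannot be told apart, and the labels name 1 siRNA against TET2, with no sequence.

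The ER senses unfolded protein through the transmembrane sensors IRE1 (gene ERN1), PERK (EIF2AK3) and ATF6, and the response raises chaperones, folding enzymes and ERAD genes together. IRE1 splices the mRNA of XBP1, which then encodes an active transcription factor, and ATF6 is cut in the Golgi to release another. HSPA5 (BiP), the main chaperone of the Hsp70 family in the ER, binds the sensors as well as nascent proteins. Arrays of whole transcripts report the amount of XBP1 mRNA and not its splicing. The prostate epithelium is a secretory tissue, and androgen-responsive cells such as LNCaP make secreted proteases.

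Factors of this response bind short promoter elements, shown here because they are the sites through which the response is known to act. Most members had no exact match in the bases searched, which does not show that they lack an element. The ER stress response element (ERSE, letters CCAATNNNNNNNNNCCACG) and the related ERSE-II (letters ATTGGNCCACG) were searched on both strands of RefSeq promoters of build GRCh38.p14, from 250 bases before to 50 after the start site. Of the 33 members, 29 had an entry. ERSE was found in 8 of these 29 (27.6%) and in 25 of 27305 genes overall (0.0916%), and ERSE-II in 3 of 29 (10.3%) and in 19 of 27305 (0.0696%). The members are textbook genes of the unfolded protein response, so these shares describe the list and were not tested. The matches are printed 5′ to 3′ on the strand that holds the element, with the fixed letters of the element in capitals.
HSPA5 ERSE: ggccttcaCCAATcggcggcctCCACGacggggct
HSP90B1 ERSE, far copy: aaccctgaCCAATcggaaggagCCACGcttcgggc
HSP90B1 ERSE, near copy: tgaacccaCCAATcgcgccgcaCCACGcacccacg
CALR ERSE: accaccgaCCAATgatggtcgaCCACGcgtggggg
CANX ERSE: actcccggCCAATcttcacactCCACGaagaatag
CRELD2 ERSE: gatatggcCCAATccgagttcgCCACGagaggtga
PDIA6 ERSE: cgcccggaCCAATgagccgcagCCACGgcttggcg
XBP1 ERSE: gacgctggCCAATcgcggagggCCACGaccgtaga
ERO1B ERSE: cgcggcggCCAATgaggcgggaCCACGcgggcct
HERPUD1 ERSE-II: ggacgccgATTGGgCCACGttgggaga
SDF2L1 ERSE-II: gggttttgATTGGtCCACGcttccgag
HYOU1 ERSE-II, far copy: ggcctgggATTGGaCCACGtcacgggg
HYOU1 ERSE-II, near copy: gcgtactcATTGGaCCACGtcccaggc

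The HSPA5 window lies at chr9:125241383-125241417 on the minus strand, that of XBP1 at chr22:28800595-28800629 on the minus strand and that of HERPUD1 at chr16:56932017-56932043 on the plus strand. The elements of HSPA5, XBP1, PDIA6, CANX and HERPUD1 run in the direction of their gene, and those of CALR, CRELD2, ERO1B, SDF2L1 and HYOU1 run against it. HSP90B1 holds 1 copy in each direction. The CANX and PDIA6 windows lie inside the RefSeq span of the gene, at chr5:179698770-179698804 and chr2:10812845-10812879. Their positions are thus counted from a start site other than the outermost one. The unfolded protein response element (UPRE, letters TGACGTGG) was found in HYOU1 alone among the members, where it overlaps the far ERSE-II copy, and in 253 of 27305 genes (0.927%). The shorter core CCACG, which every ERSE and ERSE-II contains, was present in 21 of 29 members (72.4%) and in 42.1% of all genes. The 250 bases before the HSPA5 start site, chr9:125241344-125241593 on the minus strand, show how the element stands beside the start of the gene, with its fixed letters again in capitals.
HSPA5 promoter: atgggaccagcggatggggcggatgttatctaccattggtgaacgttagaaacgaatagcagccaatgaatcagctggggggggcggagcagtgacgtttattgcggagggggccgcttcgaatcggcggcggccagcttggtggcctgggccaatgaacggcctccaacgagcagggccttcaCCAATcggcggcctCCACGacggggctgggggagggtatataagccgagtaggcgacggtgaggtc

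**Figure D1:**
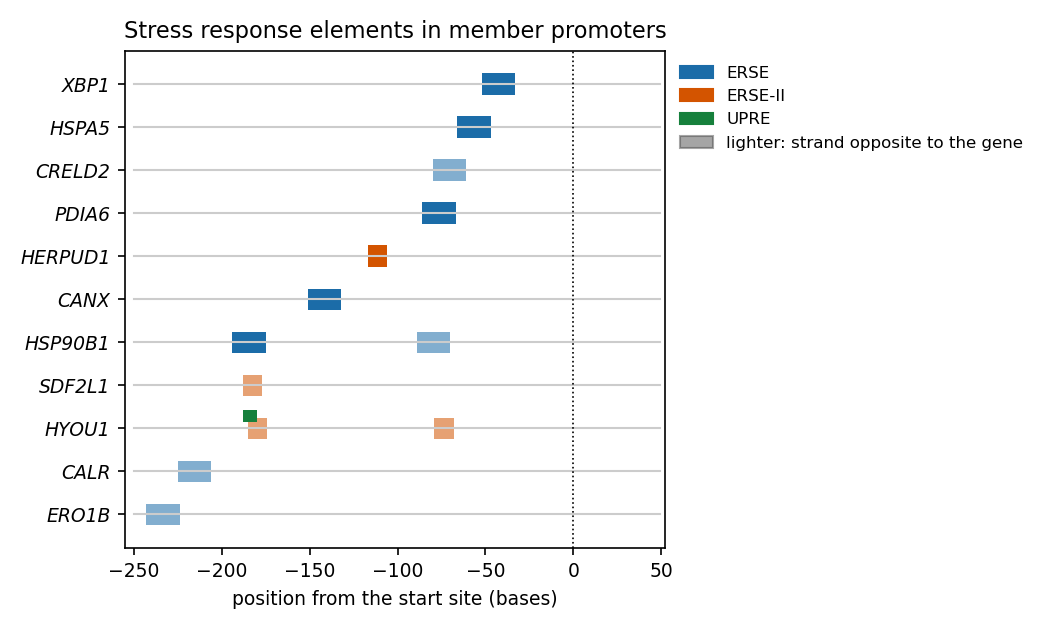
Positions of ERSE (blue), ERSE-II (orange) and UPRE (green) matches in the promoters of the 11 members that hold an ERSE or ERSE-II, in bases from the start site (dotted line at 0). Paler boxes are matches on the strand opposite to the gene. HSP90B1 and HYOU1 each hold 2 such elements, and the match of XBP1 lies nearest to its start site. For CANX and PDIA6 the start site used lies inside the RefSeq span of the gene.

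The cells matched their labels. LNCaP arrays had 6 or 7 of 7 measured LNCaP markers above their median and 0 of 10 DU145 markers. DU145 arrays had 10 of 10 DU145 markers above it and 1 LNCaP marker. Immune markers were above the median in 0 of 9 and fibroblast markers in at most 1 of 10. TET2, the target of the siRNA, had log2 values of 9.24 with nc, 8.59 with miR-29b, 9.01 with siControl and 7.89 with siTET2 in LNCaP, and of 7.96, 7.79, 7.85 and 6.60 in DU145. With siTET2 against siControl it fell by 1.18 (log2, SE 0.12), with a limma adjusted p of 0.0178. RefSeq gives the mature strand of the transfected miRNA, printed with its seed (bases 2 to 8) in capitals.
hsa-miR-29b-3p: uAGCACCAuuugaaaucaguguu

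Members varied little within a line, as did most genes. The gap between a member's highest and lowest array had a median of 0.16 on the log2 scale in LNCaP, from 0.03 for DERL2 to 0.61 for ERO1A, and of 0.21 in DU145, from 0.06 for DERL1 to 0.79 for HERPUD1. The median gap over the 9209 genes tested was 0.26 in LNCaP and 0.25 in DU145. In each line 1 of 32 members, ERO1A in LNCaP and HERPUD1 in DU145, spanned at least 1.5-fold over its 4 arrays, and 6.21% and 5.23% of genes did. The genes were not matched to the members for level. Which array was highest was uneven. In LNCaP the siControl array was highest for 15 of 32 members, against 26.6% of all genes, and in DU145 for 16 of 32, against 19.4%. The siTET2 array was lowest for 12 members in each line, against 23.2% of genes in LNCaP and 38.4% in DU145, and in DU145 the miR-29b array was lowest for 16, against 25.5%.

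**Figure D2:**
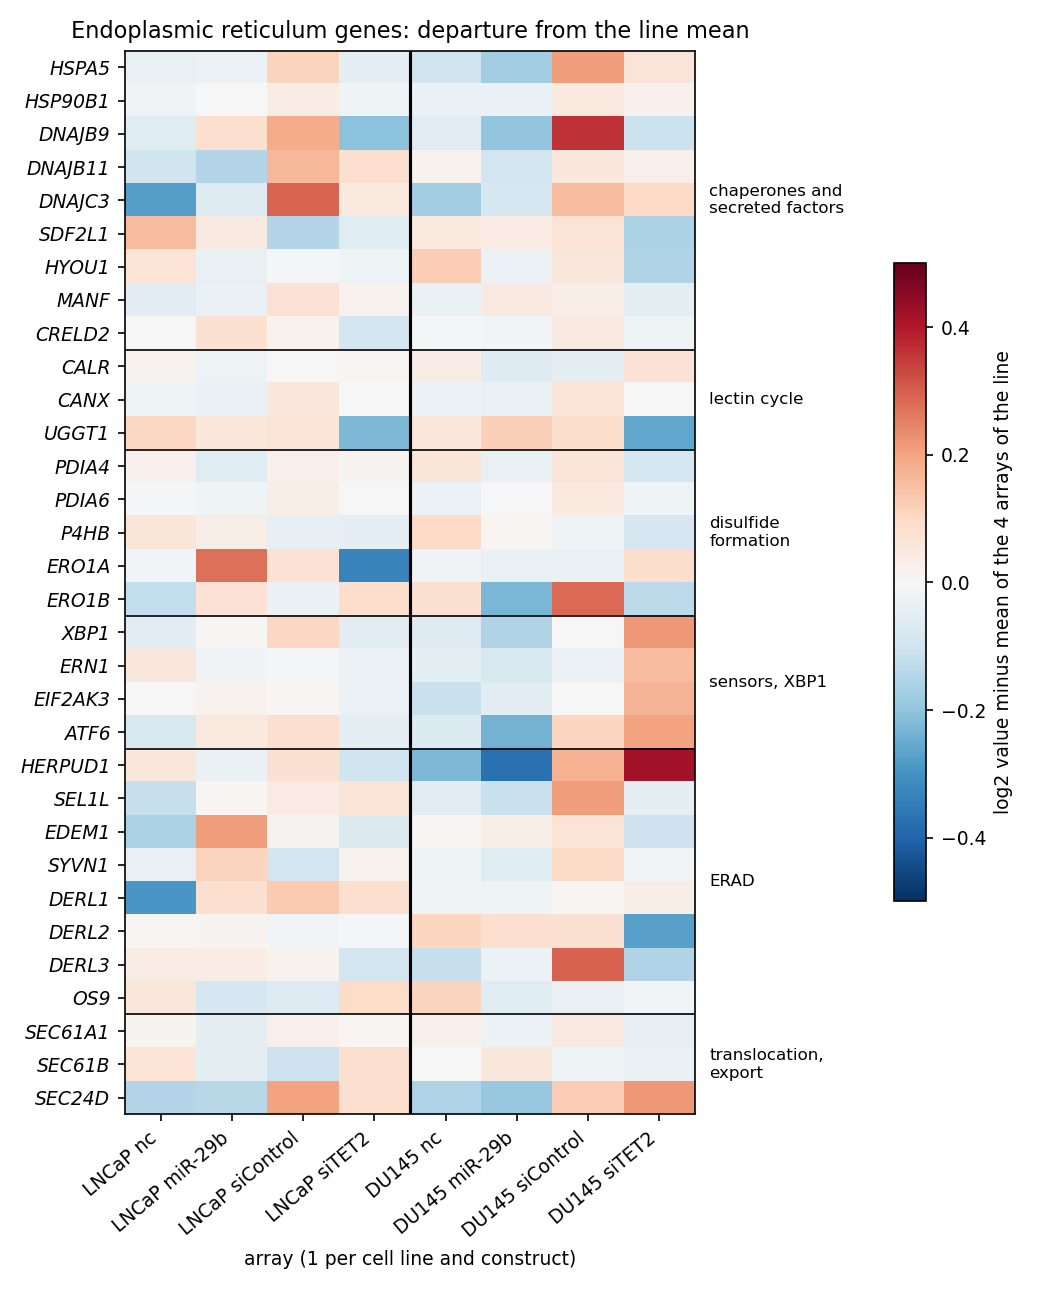
Departure of each of the 32 measured members from the mean of its 4 arrays in a line, in log2 units, with 1 column per array and members grouped by role. The deepest colours are in DU145: the high siTET2 and low miR-29b cells of HERPUD1, and the high siControl cell of DNAJB9. The low siTET2 cell of ERO1A in LNCaP comes next. The siControl columns are mostly red for the chaperones.

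With siTET2 against siControl, no member passed the test for a difference common to both lines. In the limma fit 0 of 31 tested members passed at an adjusted p of 0.05, where 35 of 9209 genes did (0.38%), 3 upwards and 32 downwards. At an unadjusted p of 0.05, 2 members were counted, against 13.7% of all genes. DERL3 was below the level filter and was not tested. The direction was mostly downwards and small: 24 of 31 members lay below 0, with a median of -0.06, whereas 50.1% of all genes did, with a median of 0.00. The downward count was not seen with the other control. Against nc, 18 of 32 members lay below 0 in LNCaP and 15 of 32 in DU145, and the median of the common differences was 0.013. It was -0.016 against siControl after quantile normalization. The 95% intervals of all tested members lay between -0.69 and 0.46.

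UGGT1, the enzyme that re-glucosylates misfolded glycoproteins so that they return to calnexin and calreticulin, had the smallest adjusted p. It measured 10.47 with nc, 10.41 with miR-29b, 10.43 with siControl and 10.14 with siTET2 in LNCaP, and 10.57, 10.63, 10.60 and 10.25 in DU145. The siTET2 array was the lowest of its line both times. The siTET2 minus siControl difference was -0.32 (SE 0.085, 95% interval -0.51 to -0.13, limma adjusted p = 0.163), with -0.29 in LNCaP and -0.35 in DU145. Against nc the differences were -0.33 and -0.32.

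DNAJB9 (ERdj4), a cochaperone of HSPA5 and a target of XBP1, had the largest difference. Its log2 values were 8.13 with nc, 8.27 with miR-29b, 8.38 with siControl and 7.99 with siTET2 in LNCaP, and 7.87, 7.73, 8.29 and 7.82 in DU145. The siControl array was the highest in each line, and the siTET2 array was the lowest in LNCaP only. The siTET2 minus siControl difference was -0.43 (SE 0.12, 95% interval -0.69 to -0.16, limma adjusted p = 0.169). Against nc it was -0.15 in LNCaP and -0.05 in DU145, so the size depended on which control was used.

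All 9 chaperones had common siTET2 differences below 0, from -0.43 for DNAJB9 to -0.04 for HSP90B1, the Hsp90 of the ER, and none passed the test. Against nc, 6 of 9 were below 0 in LNCaP and 5 of 9 in DU145, with medians of -0.006 and -0.011. HSPA5 measured 12.74 with nc, 12.75 with miR-29b, 12.89 with siControl and 12.73 with siTET2 in LNCaP, and 12.79, 12.71, 13.09 and 12.95 in DU145. Its siTET2 minus siControl difference was -0.15 in LNCaP and -0.14 in DU145, and against nc it was -0.01 and 0.16. The siControl array carried its highest value in each line. DNAJC3 (p58IPK), a cochaperone that also inhibits PERK, was at -0.24 in LNCaP and -0.06 in DU145 against siControl, but at 0.32 and 0.27 against nc.

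Among the other chaperones, HYOU1, a nucleotide exchange factor of HSPA5, was at -0.02 in LNCaP and -0.20 in DU145. CRELD2, a secreted protein of ER stress, was at -0.11 and -0.07, and MANF, a secreted survival factor, at -0.05 and -0.08. SDF2L1, a partner of DNAJB9 and DNAJB11, was at 0.09 in LNCaP and -0.23 in DU145. DNAJB11 (ERdj3), a cochaperone that binds unfolded proteins, was at -0.09 and -0.03, so apart from DNAJB9 no chaperone was as much as 0.25 from its siControl array.

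Of the lectins that hold glycoproteins in the folding cycle, calreticulin (CALR) was at 0.01 in LNCaP and 0.12 in DU145, and calnexin (CANX) at -0.06 in each line. All 5 measured genes of disulfide formation had common siTET2 differences below 0, from -0.15 for ERO1B to -0.03 for P4HB, and none passed. Against nc, 3 of 5 were below 0 in each line. PDIA4, PDIA6 and P4HB are isomerases, and ERO1A and ERO1B are the oxidases that recharge them.

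ERO1A measured 9.49 with nc, 9.78 with miR-29b, 9.58 with siControl and 9.17 with siTET2 in LNCaP, and 11.88, 11.86, 11.86 and 11.98 in DU145. In LNCaP its siTET2 value was 0.41 below siControl, the lowest difference of any member there, and in DU145 it was 0.12 above. ERO1B went the other way, with 7.36, 7.55, 7.45 and 7.57 in LNCaP and 7.81, 7.50, 8.02 and 7.60 in DU145, a difference of 0.12 in LNCaP and -0.41 in DU145. The oxidases thus had opposite signs in each line. In LNCaP, ERO1B lay below the level floor, which requires the higher of the 2 arrays to reach its median over named genes.

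The stress sensors and XBP1 had opposite signs in the lines. In DU145, XBP1, ERN1, EIF2AK3 and ATF6 were all above their siControl array with siTET2, by 0.22, 0.18, 0.17 and 0.09, and above nc by 0.28, 0.20, 0.28 and 0.27. In LNCaP the same 4 genes were all below siControl, between -0.16 (XBP1) and -0.02 (ERN1), and against nc they lay between -0.09 and 0.03. Each of these differences is a single pair of arrays and none reached 1.5-fold. The difference between the lines was not tested, since a construct by line effect leaves no array for the error.

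XBP1 itself measured 11.17 with nc, 11.22 with miR-29b, 11.32 with siControl and 11.16 with siTET2 in LNCaP, and 10.32, 10.23, 10.38 and 10.60 in DU145. In DU145 the siTET2 array was the highest for XBP1 and each of the sensors, and in LNCaP it was never the highest.

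HERPUD1, a membrane protein that organises the ERAD complex, had the widest spread of any member within DU145. Its values were 11.00 with nc, 10.91 with miR-29b, 11.02 with siControl and 10.84 with siTET2 in LNCaP, and 9.91, 9.77, 10.31 and 10.56 in DU145. In DU145 both siRNA arrays were higher than both miRNA arrays, and in LNCaP the siTET2 array was the lowest. With siTET2 the difference in DU145 was 0.25 against siControl and 0.65 against nc. The second value made it the only member to pass 1.5-fold with the other control, and in LNCaP the differences were -0.18 and -0.15.

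The derlins, membrane proteins through which ERAD substrates leave the ER, did not move together. DERL2 was at 0.01 in LNCaP and -0.35 in DU145, where its values were 10.12 with nc, 10.10 with miR-29b, 10.09 with siControl and 9.74 with siTET2, so that only the siTET2 array stood apart. DERL3 was at -0.11 and -0.44, but its DU145 value was 7.40 with siControl and between 6.96 and 7.08 in the other 3 arrays. The siTET2 value of DERL3 was below the array median over named genes in each line. DERL1 was at -0.05 and 0.02.

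Of the remaining ERAD genes, SEL1L, the adaptor of the ubiquitin ligase SYVN1 (HRD1), was at 0.03 in LNCaP and -0.25 in DU145, and at 0.01 in DU145 against nc. SYVN1 was at 0.11 and -0.11. EDEM1, which trims mannose from terminally misfolded glycoproteins, was at -0.08 and -0.17, and OS9, a lectin that delivers such proteins to SEL1L, at 0.16 and 0.02. The Sec61 channel subunits SEC61A1 and SEC61B were at -0.01 and 0.18 in LNCaP and at -0.09 and -0.01 in DU145, and SEC24D, a cargo receptor of COPII vesicles, at -0.12 and 0.09.

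At 1.5-fold, 0 members differed between siTET2 and siControl in LNCaP, where 2.75% of genes above the floor did, and 0 in DU145, where 2.55% did. In both lines together, 8 of 32 members lay below both controls with siTET2, namely UGGT1, DNAJB9, PDIA4, P4HB, HYOU1, CRELD2, SEC61A1 and DERL3. The share among all tested genes was 16.2%. None lay above both controls in both lines, against 14.7% of genes.

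**Figure D3:**
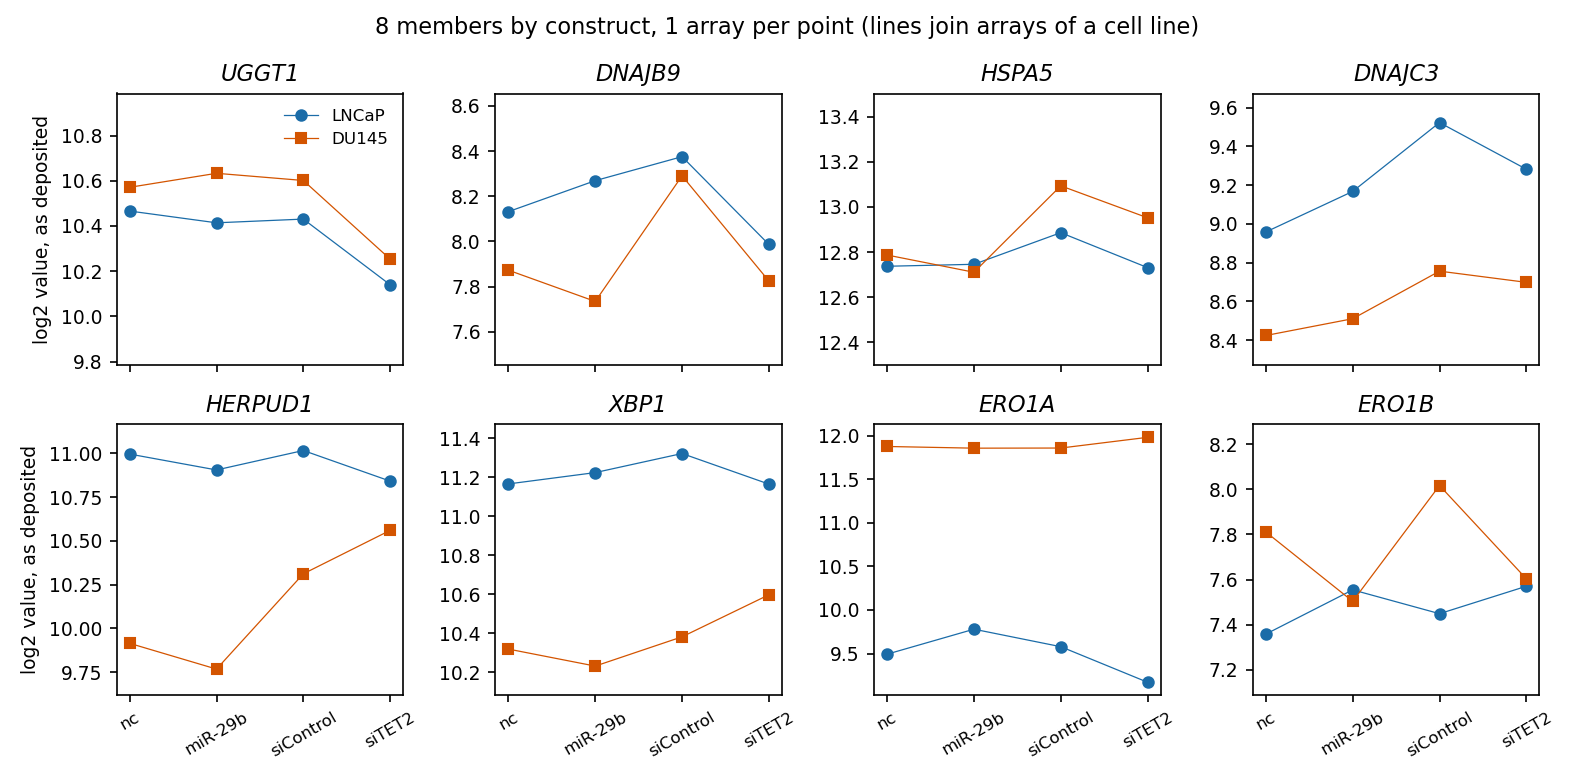
Deposited log2 values of 8 members by construct, with LNCaP as circles and DU145 as squares, 1 array per point and no error bar. The vertical axes differ between panels. UGGT1 is lowest with siTET2 in both lines, DNAJB9, HSPA5 and DNAJC3 are highest with siControl in both lines, and HERPUD1 and XBP1 are highest with siTET2 in DU145 only.

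For miR-29b too, no member passed the test for a difference common to both lines. In the limma fit of miR-29b minus nc, 0 of 31 members passed, as did 0 of 9209 genes (0.0%), and at an unadjusted p of 0.05 the counts were 0 members and 344 genes (3.74%). The median over the members was -0.01, with 19 of 31 below 0 against 51.7% of genes. The 95% intervals of the members lay between -0.54 and 0.48.

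Inside the lines, 0 members were 1.5-fold apart in LNCaP (0.847% of genes above the floor) and 0 in DU145 (0.117%). The highest members in LNCaP were DERL1 and EDEM1, each at 0.37, and ERO1A at 0.29. EDEM1 measured 9.06 with nc, 9.43 with miR-29b, 9.24 with siControl and 9.16 with siTET2 there, so that miR-29b was the highest array. DERL1 measured 11.04, 11.41, 11.46 and 11.41, so that nc alone stood apart, and against siControl its miR-29b difference was -0.05. In DU145 the same genes were at -0.01 (DERL1), 0.02 (EDEM1) and -0.02 (ERO1A).

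The lowest member in DU145 was ERO1B, at -0.31 against nc and -0.51 against siControl. HERPUD1 in DU145 was at -0.15 against nc and -0.54 against siControl, and DNAJB9 at -0.14 and -0.56. With miR-29b, 9 of 32 members lay below both controls in both lines (DNAJB11, CALR, CANX, PDIA4, HERPUD1, HYOU1, ERN1, SEC61A1 and OS9), against 10.4% of genes, and 0 above both, against 6.33%. The common differences of these genes were small. OS9 was the lowest at -0.15 (SE 0.087, limma adjusted p = 0.995), followed by HYOU1 at -0.13.

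No member passed between the control constructs either. This comparison shares the siControl arrays with the siTET2 one and the nc arrays with the miR-29b one, so their values are not independent. For siControl minus nc, 0 of 31 members and 0 of 9209 genes (0.0%) passed in limma. At an unadjusted p of 0.05, 4 members and 13.2% of genes were counted. Of the members, 22 of 31 lay above 0, with a median of 0.06, whereas 52.1% of genes lay below 0. The 4 members were DNAJC3, DNAJB9, SEC24D and HSPA5.

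DNAJC3 had the largest of these differences. It measured 8.96 with nc, 9.17 with miR-29b, 9.52 with siControl and 9.28 with siTET2 in LNCaP, and 8.42, 8.51, 8.76 and 8.70 in DU145. Both siRNA arrays were above both miRNA arrays in each line. The siControl minus nc difference was 0.45 (SE 0.092, 95% interval 0.24 to 0.66, limma adjusted p = 0.354). SEC24D had the same arrangement of arrays, with 8.86, 8.87, 9.21 and 9.09 in LNCaP and 8.43, 8.39, 8.71 and 8.80 in DU145, and a difference of 0.31 (SE 0.091, limma adjusted p = 0.354). HSPA5 was at 0.23 (SE 0.097, limma adjusted p = 0.377) and DNAJB9 at 0.33 (SE 0.12, limma adjusted p = 0.354).

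Within a line, 0 members were 1.5-fold apart between the controls in LNCaP (2.31% of genes) and 0 in DU145 (0.341%). DNAJC3 in LNCaP came closest, at 0.56, where 1.5-fold is 0.58. SDF2L1 was the lowest in LNCaP, at -0.31, and was at 0.02 in DU145. In DU145 DNAJB9 (0.42), DERL3 (0.41) and HERPUD1 (0.40) were the highest. DERL3 reached the level floor there through its siControl array alone (7.40, array median 7.38), with 6.99 for nc (array median 7.42). As an absolute value, the median member differed by 0.09 in LNCaP and 0.08 in DU145 between the controls, and by 0.09 and 0.12 between siTET2 and siControl.

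**Figure D4:**
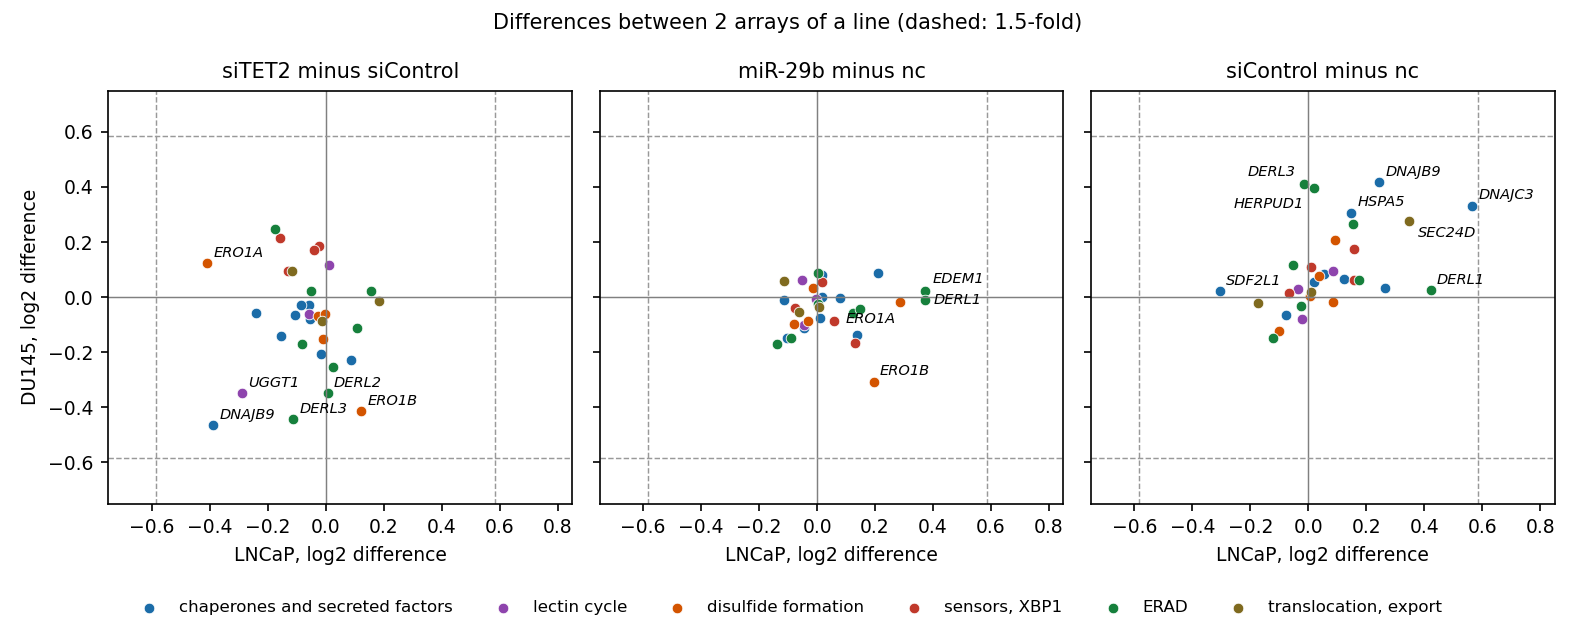
Log2 difference of each member in LNCaP (horizontal) and DU145 (vertical) for siTET2 minus siControl, miR-29b minus nc and siControl minus nc, coloured by role, with dashed lines at 1.5-fold. No point passes a dashed line. UGGT1 and DNAJB9 lie low in both lines with siTET2, and DNAJC3, DNAJB9, SEC24D and HSPA5 lie high in both lines in the comparison of the controls.

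Members with an exact match to ERSE or ERSE-II did not stand apart in these differences from those with none in the bases searched. For siTET2 minus siControl the median common difference was -0.06 over the 11 members with an exact match and -0.06 over the 18 without. A member without an exact match may still hold an element. For siControl minus nc the medians were 0.07 and 0.03, and for miR-29b minus nc -0.03 and -0.01. In DU145 with siTET2, the 11 members with an element ran from -0.41 for ERO1B to 0.25 for HERPUD1. The medians are descriptions and were not tested.

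The cell line made the largest difference. The deposited medians over all probe sets were 7.10 to 7.17 in LNCaP and 6.59 to 6.66 in DU145, so the lines were first put on a common scale by quantile normalization. The line cannot be told apart from its growth or its array run. In limma, 25 of 31 members differed between the lines, close to the 79.5% of all genes that did. Of these, 9 were higher in DU145 (35.5% of genes) and 16 in LNCaP (43.9% of genes). On the deposited values 5 and 20 members were called, and after median centring 11 and 12. All 25 kept their sign under the 3 scalings, and 17 were called the same way under each of them. The arrays of the lines did not overlap for 21 of 31 members, against 69.9% of genes.

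ERO1A differed most. On the common scale it had a mean log2 value of 11.96 ± 0.073 (SD, n = 4 arrays) in DU145 and 9.43 ± 0.26 in LNCaP, a difference of 2.53 (SE 0.11, 95% interval 2.27 to 2.80), which is 5.79-fold (limma adjusted p = 1.84e-07). The smallest difference for any of the 4 constructs was 2.21. The other genes of disulfide formation were also higher in DU145: PDIA6 by 0.58, PDIA4 by 0.57 and ERO1B by 0.55 (limma adjusted p = 2.88e-05, 2.46e-05 and 0.00114). On the deposited values ERO1B lost its call, at 0.25 (limma adjusted p = 0.0559). P4HB was the exception, at 0.05 (95% interval -0.08 to 0.19, limma adjusted p = 0.418). It was at -0.06 on the deposited values and 0.23 after median centring, and was called under 1 of 14 alternatives. Its second probe set measured 11.82 to 11.89 in LNCaP and 11.50 to 11.67 in DU145 as deposited.

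SEC61A1, the pore of the translocation channel, was the member with the largest difference the other way. It measured 12.19 to 12.27 in LNCaP and 10.68 to 10.77 in DU145 as deposited, and on the common scale it was 1.42 lower in DU145 (SE 0.057, 2.68-fold, limma adjusted p = 8.97e-08). SEC61B and SEC24D were lower in DU145 too, at -0.63 and -0.22, and SEC24D lost its call after median centring, at -0.14. ERO1A and SEC61A1 were the 2 members past 2-fold.

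XBP1 and the sensors were all lower in DU145. XBP1 was at -0.74 (SE 0.079, limma adjusted p = 3.41e-05), EIF2AK3 at -0.49, ATF6 at -0.40 and ERN1 at -0.36, and the arrays of the lines did not overlap for any of the 4. ATF6 lost its call after median centring, at -0.21. Among the chaperones, MANF was at -0.81 (SE 0.058, limma adjusted p = 2.88e-06), and SDF2L1, DNAJC3 and CRELD2 were at -0.51, -0.44 and -0.38.

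HSPA5 and DNAJB11 were slightly higher in DU145, at 0.20 and 0.16, but neither was called on the deposited values. HSPA5 also lost its call without the siControl or the siTET2 array of either line (0.16 to 0.17), and DNAJB11 without the nc, miR-29b or siControl array of either line (0.14 to 0.18). DNAJB9, HYOU1 and HSP90B1 were not called, at 0.00, 0.00 and -0.14, and after median centring HYOU1 was called at 0.19. HSP90B1 was called under 6 of 14 alternatives, and ran from -0.21 on the deposited values to 0.07 after median centring. DNAJB9 was called under 1 of 13, and was at -0.26 on the deposited values. Of the lectin cycle, CALR was lower in DU145 at -0.39, and CANX and UGGT1 were higher at 0.20 and 0.25. CANX lost its call on the deposited values, at 0.12.

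For ERAD, SYVN1 was at -0.73 (SE 0.072, limma adjusted p = 2.33e-05) and HERPUD1 at -0.70 (SE 0.14, limma adjusted p = 0.00149), both lower in DU145. The HERPUD1 difference ran from -1.03 to -0.17 over the 4 constructs, the smallest being with siTET2. SEL1L, the partner of SYVN1, was higher in DU145 at 0.37 (SE 0.070, limma adjusted p = 0.00123). Thus the ligase and its adaptor had opposite signs. DERL1 and DERL2 were at -0.27 and -0.26, and lost their calls after median centring. EDEM1 and OS9 were not called, at -0.15 and -0.06. On the deposited values they were at -0.32 and -0.16, and each was called under 1 of the alternatives.

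**Figure D5:**
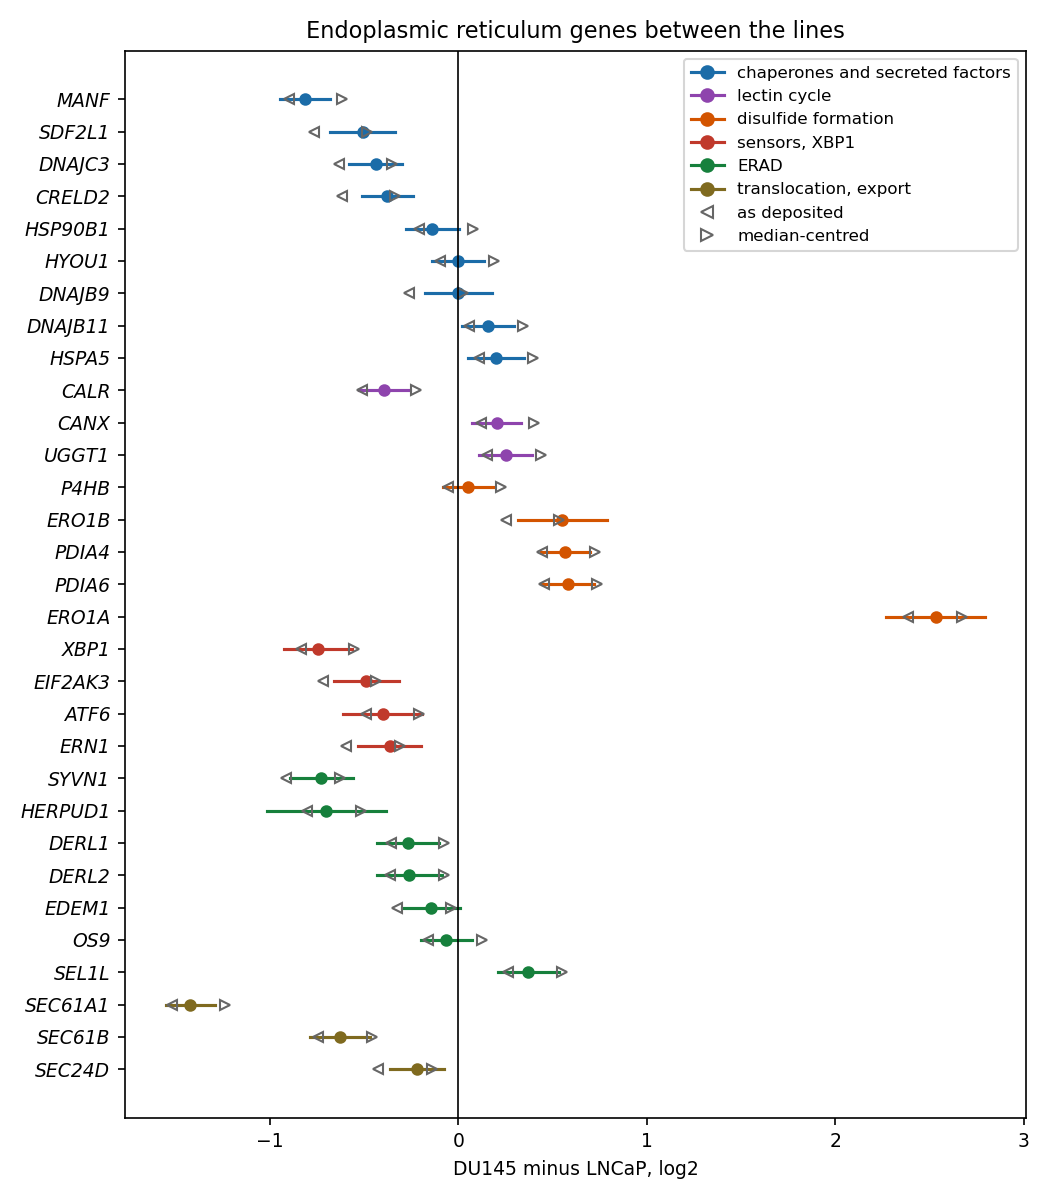
Difference DU145 minus LNCaP of the 31 tested members on the log2 scale after quantile normalization (dots) with 95% intervals (bars), coloured by role, and the same difference on the deposited (left-pointing) and median-centred (right-pointing) values. ERO1A lies alone at 2.53 and SEC61A1 at -1.42, XBP1 and all the sensors lie below 0, and 4 of 5 genes of disulfide formation are called above 0.

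The wider ER pathways were read from lists of other genes with the same roles. With siTET2 against siControl, 0 of 30 other folding genes, 0 of 46 other translocation and export genes, 0 of 12 other signalling genes of the unfolded protein response and 0 of 13 cytosolic heat shock genes passed in limma in either direction. Of 29 other ERAD genes, 0 rose and 1 fell, SVIP, a small inhibitor of ERAD that binds the ATPase VCP. SVIP measured 10.92 with nc, 10.91 with miR-29b, 11.00 with siControl and 10.38 with siTET2 in LNCaP, and 8.03, 8.06, 8.12 and 7.58 in DU145. The siTET2 array was the lowest in each line and the other 3 were close together. The difference was -0.58 (SE 0.084, 95% interval -0.77 to -0.39, limma adjusted p = 0.0353). Against nc it was -0.50 with an adjusted p of 0.0746, and the call was lost when any 1 of the 8 arrays was left out (limma adjusted p from 0.0550 to 0.468).

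Other folding and degradation genes had uncalled differences. DNAJC10 (ERdj5), a disulfide reductase, was at -0.33 (SE 0.099, limma adjusted p = 0.191) with siTET2, and EDEM3, a mannosidase like EDEM1, at -0.34 (SE 0.15, limma adjusted p = 0.374). Of 23 tested genes of the PERK, ATF4 and CHOP branch, 0 passed with siTET2, with SHMT2, a mitochondrial enzyme of serine metabolism, nearest at -0.57 (SE 0.11, limma adjusted p = 0.0766).

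Inside DU145, genes of that branch passed 1.5-fold in single pairs of arrays. With siTET2, 6 of its 22 genes above the floor were at least 1.5-fold above siControl (0.955% of all genes were) and 1 below (1.59%). These were SESN2 (1.24), PPP1R15A (0.99), CHAC1 (0.92), DDIT3 (0.81), DDIT4 (0.65) and STC2 (0.61), and SHMT2 at -0.66. The count of 7 became 1 at 2-fold, 5 with a floor at the 75th percentile, and 9 with no floor or with nc as control. DDIT3 (CHOP) is a transcription factor induced by ATF4, and PPP1R15A (GADD34) is the phosphatase subunit that reverses the action of PERK. Between the controls of DU145, DDIT3 was already 0.91 higher with siControl than with nc. In the same arrays 9 of 9 ER chaperones lay below their siControl value, and 5 of 9 lay below nc.

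In LNCaP the branch looked different. With siTET2, SLC7A11, a cystine transporter, was at -0.98 and no gene was 1.5-fold higher. With miR-29b, CHAC1, an enzyme that degrades glutathione, was at 0.99 and SLC7A11 at 0.74 against nc, and at 0.87 and 0.15 against siControl. For miR-29b minus nc and for siControl minus nc, none of the lists of other genes had a member that passed in limma.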

How the data were processed

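The authors deposited log-scale expression values, read here as log2, for 33297 probe sets on 8 arrays, made with Affymetrix Expression Console and RMA per the submitters' processing notes. The log base, and which arrays were normalized together, are not given in the sources used here. Differences between arrays were read on the log2 scale. Lines were compared after quantile normalization over the 8 arrays, with the deposited and the median-centred values as alternatives. Of the probe sets, 19460 had 1 gene symbol in the platform annotation, 1754 had several and 12083 were not listed. Those with several stayed unnamed, and 19429 of those with 1 matched RefSeq. P4HB was the only member with 2 probe sets.

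Effects common to both lines were fitted with limma 3.58.1 in R 4.3.3 on all 8 arrays, with line and construct as terms, over the 9209 genes whose mean reached the median of gene means, with Benjamini-Hochberg adjustment. Each array is 1 sample of its group. The fit had 3 residual degrees of freedom, to which limma added 5.55 from the spread of all genes (5.12 for the line comparison). The labels name no separate cultures behind a construct, so a p-value reflects array-to-array spread, part of which may be technical. That spread includes how far the lines depart from a shared effect of a construct. On simulated data for siTET2 minus siControl, the fit found 84% of genes given a shift of 1 log2 unit and 33% of those given 0.5 (100 each), with 3 false calls. Each shift was the same in both lines, so recovery of effects that differ between them was not measured. The simulated noise was independent between genes, with no shift shared by the genes of an array. That noise may be simpler than the real spread. Within a line, differences of 2 arrays were counted at 1.5-fold among genes above the array median, with no test.

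The members and lists were chosen with earlier results of these data known. Named genes are all members, TET2, and the highest and lowest genes of each other list, while 6 genes past 1.5-fold in DU145 were named after their values were seen. Alternatives varied the filter, variance trend, probe set rule, scaling, control construct and each array left out. Protein sequences were not used here.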

Additional observations from a re-analysis of the deposited data

Results flagged for a closer look

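Among members above the level floor in both lines, there were 7 comparisons in which the difference had opposite signs in LNCaP and DU145, at least 0.32 log2 units apart. Each value is the difference of 1 array from another, and whether the lines differ was not tested. With siTET2 against siControl, HERPUD1 was at -0.18 in LNCaP and 0.25 in DU145, XBP1 at -0.16 and 0.22, ERO1A at -0.41 and 0.12, and DERL2 at 0.0065 and -0.35. With miR-29b against nc, DERL1 was at 0.37 in LNCaP and -0.0103 in DU145. Between the controls, siControl minus nc, SDF2L1 was at -0.31 in LNCaP and 0.0215 in DU145, and DERL3 at -0.0157 and 0.41. For DERL2, DERL1, SDF2L1 and DERL3 the value in one of the lines was close to 0. DERL3 reached the floor through its siControl array alone in each line.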

How the results depend on the processing

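Of 164 alternatives for the counts of members, 160 left the count within 1.5 times. Except for DU145 minus LNCaP, every such count was 0 in the main setting. In each direction, 13 of 14 alternatives for DU145 minus LNCaP left the count within 1.5 times. For DU145 minus LNCaP, 10 members were lower in DU145 with a filter at the 75th percentile, which left 21 members tested, and 5 were higher on the deposited values. HYOU1 turned from 0.00 to 0.19 after median centring (limma adjusted p = 0.0223). With median centring 1 member, DNAJC3, was 1.5-fold apart between the controls in LNCaP (0.64), and with nc as control 1 member, HERPUD1, was 1.5-fold apart with siTET2 in DU145 (0.65). With 1 array left out, members called higher in DU145 numbered 7 to 8 and lower 16 to 17, and 0 members passed for any construct.

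Of 424 alternatives for single members between the lines, 394 kept direction and side of the threshold, 19 lost the call and 10 gained one. The remaining 1, HYOU1 after median centring, was counted as reversed, being called with the sign opposite to its uncalled main value. Uncalled values that changed sign are not counted as reversed. Over the alternatives, the limma adjusted p of UGGT1 with siTET2 ran from 0.0793 to 0.702 and that of DNAJB9 from 0.140 to 0.687. The SVIP call was also lost with no filter (limma adjusted p = 0.191) and after quantile normalization (0.0502). Over all genes, siTET2 minus siControl gave 35 calls, but 1 with no filter, 87 with the stricter filter, 113 with an intensity trend, 82 against the mean of both controls and 18 against nc. It gave 0 without the siControl array of either line or the DU145 siTET2 array, 136 without the LNCaP siTET2 array and 11 without either miR-29b array. The line gave 7317 calls, 3697 with the stricter filter and 13093 with none. The fit compared constructs within each line through its line term, and no replicate block was added because the labels number no replicates. Probes near background limit DERL3, which was below the filter.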
